A study of Mus musculus with 4 samples.

Results

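CD51+;CD200+ skeletal stem/progenitor cells of the posterior frontal (PF) suture were compared with those of the coronal (COR) suture, the first a suture that fuses early in life and the second a suture that stays patent. There was 1 RNA-seq library of each. Genes were compared by symbol when they reached 1 FPKM (sequenced fragments scaled by length of the transcript and size of the library) in either library, which kept 12849 of the 23946 symbols listed. Ratios were taken as PF to COR on the log2(FPKM + 1) scale, so that a value above 0 is higher in PF, and a difference of 3-fold or more on that scale was counted. Because 1 is added to both values, FPKM that differ by more than 3-fold as printed can fall short on that scale. *Sparc*, *Col1a1*, *Col1a2*, and *Col3a1* were left out, because the COR library lists these 4 matrix genes at 0 while the PF library lists them at 9849, 4894, 8161, and 2634 FPKM. The growth plate library of the series also lists *Col1a2* at 0, beside *Col1a1* at 5048 FPKM. Whether such values are missing estimates was not tested, and they are not read here as absence of the RNA.

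Both libraries came from wild-type CD-1 mice at postnatal day 3, an age at which both sutures are still open, with no treatment, no transgene, and no deletion in either. Sutures of many animals were pooled, and cells were sorted by FACS as positive for CD51 and CD200 and negative for the blood, endothelial, and stromal antigens CD45, Ter119, Tie2, CD105, 6C3, and both Thy1 alleles. The series holds 2 more libraries of cells sorted in the same way, from the patent sagittal (SAG) suture and from the tibial growth plate (GP). They are given here as levels beside PF and COR. Because each tissue had 1 library of pooled cells, no difference below has a replicate check, no error can be put on a value, and no p-value is given. Less RNA of a gene per cell and fewer cells that express it cannot be told apart in bulk RNA.

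A cranial suture is a strip of mesenchyme between flat skull bones. Its cells either stay as progenitors or move to the bone fronts, where RUNX2 and SP7 (osterix) drive the osteoblast program and matrix is laid down and mineralized. The PF suture of the mouse closes through a cartilage intermediate, whereas the coronal suture normally does not close. Wnt, FGF, BMP, hedgehog, Notch, and ephrin signals are all known to set the balance between growth and closure, and mutations in several of their genes cause craniosynostosis in humans.

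The sorted antigens were checked first. *Itgav*, the gene of CD51, was at 12.7 FPKM in PF and 14.99 in COR, and *Cd200* at 23.5 FPKM in PF and 62.6 in COR. Of the antigens sorted as negative, *Ptprc* (CD45), *Tek* (Tie2), and *Thy1* were below 1 FPKM in both, *Eng* (CD105) was at 1.705 FPKM in PF and 1.07 in COR, and *Enpep* (6C3) at 7.05 FPKM in PF and 3.74 in COR. *Prrx1* and *Pdgfra*, genes of skeletal mesenchyme, were at 40.1 FPKM in PF and 43.5 in COR and at 18.8 FPKM in PF and 17.7 in COR. Of the 19 suture mesenchyme and skeletal stem cell genes compared, 11 had a higher value in PF, with log2 ratios from -1.43 to 3.04 and a median of 0.08. In PF 2 were at least 3-fold higher and none lower, against 6.78% and 4.87% of all genes compared. The higher ones were *Cxcl12* (773 and 93.03 FPKM in PF and COR) and *Mcam* (29.7 and 7.59 FPKM). The list summed to 2284 FPKM in PF and 1151 in COR, and *Cxcl12* made up much of that difference. *Hoxa10*, which is used by the hindlimb and not by the skull, was at 0.594 FPKM in PF, 0.226 in COR, 0.145 in SAG, and 79.6 in GP.

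The PF library stood apart from the other 3 at the low end of expression. It listed 463 genes at 1 FPKM or more that were under 0.2 FPKM in each of the other libraries, against 34 such genes for COR, 207 for SAG, and 75 for GP. Of 1448 olfactory and vomeronasal receptor genes, which skeletal cells are not known to use, 122 reached 1 FPKM in PF and none did in COR, and the highest PF value was 8.68 FPKM. In the other direction, 10 genes at 10 FPKM or more in the other 3 libraries were under 1 FPKM in PF, among them *Actr8* (0.3903 and 20.3 FPKM in PF and COR) and *Sh3kbp1* (0.638 and 25.3 FPKM). The smallest values above 0, taken as the first percentile of FPKM times transcript length in kilobases, lay at 0.0563 in PF and 0.0287 in COR. Were FPKM inversely proportional to library size, PF would hold 50.98% as many fragments as COR. The plot of genes seen in one library alone shows how far PF differed in this respect.

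**Figure D1:**
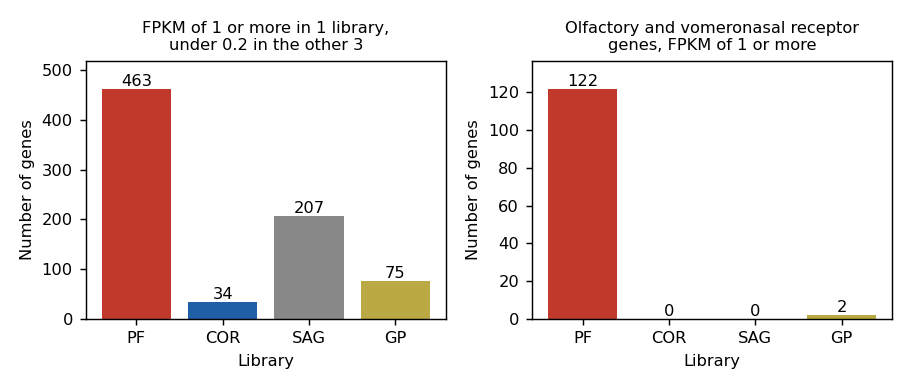
Number of genes (vertical axis) in each of the 4 libraries (horizontal axis, 1 library each) that were at 1 FPKM or more there and under 0.2 FPKM in the other 3 (left), and number of olfactory and vomeronasal receptor genes at 1 FPKM or more (right). PF has 463 and 122 of these genes and COR has 34 and 0.

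Of the 12849 genes compared, 871 (6.78%) were at least 3-fold higher in PF and 626 (4.87%) at least 3-fold lower. The count of each gene list below is to be read beside these shares. The median log2 ratio was 0.05, and the quartiles were -0.54 and 0.65. Low values made up much of both counts. Without the genes seen in PF alone, 652 were higher, and without the receptor genes 795 were. Among the 5235 genes at 10 FPKM or more in both libraries, 95 (1.81%) were higher and 55 (1.05%) lower. Higher genes made up 58.2% of the calls as listed and 75.2% when each library was set relative to *Gapdh*, a housekeeping enzyme listed at 281 FPKM in PF and 335 in COR, which moved the median of all genes to 0.30. The filter at 1 FPKM cut through a crowded range, as the 3 genes nearest inside it had a higher value of 1.001 to 1.003 FPKM and the 3 nearest outside one of 0.998 to 0.999.

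**Figure D2:**
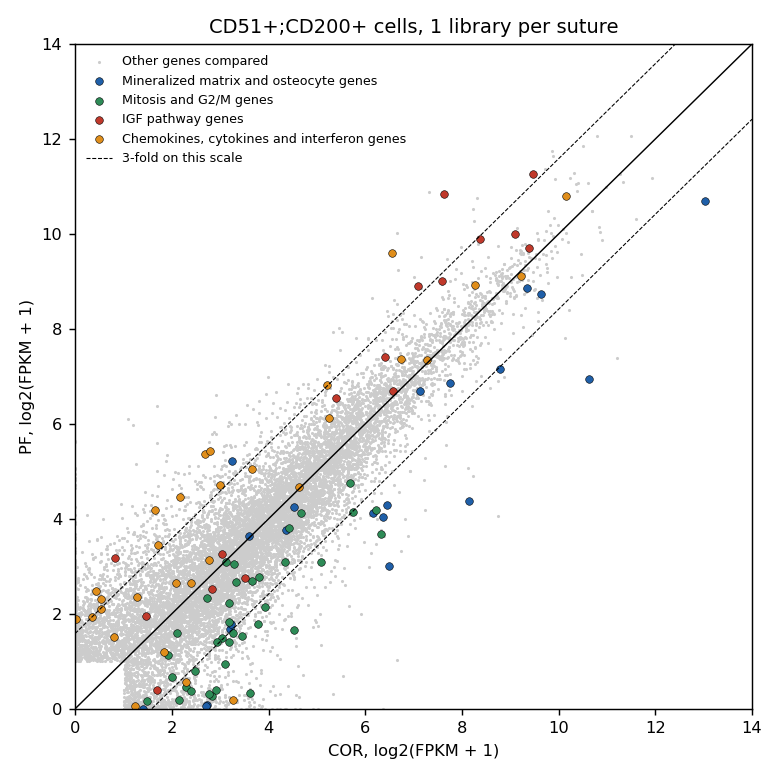
Level of each of the 12849 genes compared in COR (horizontal axis) and PF (vertical axis), both as log2(FPKM + 1), 1 library each, with 4 gene lists in colour, the line of equal level in black, and 3-fold lines dashed. Mineralized matrix genes sit mostly below the black line and mitosis genes all do, with 10 and 19 members beyond the lower dashed line, while IGF and chemokine genes sit mostly above it.

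Most genes of the mineralizing osteoblast and the osteocyte had lower values in PF-CD51+;CD200+ cells. Of the 21 members of that list compared, 19 had a lower value in PF, 10 were at least 3-fold lower, and 1 was at least 3-fold higher, with a median log2 ratio of -1.51 against 0.05 over all genes, of which 4.87% were at least 3-fold lower. COR held the highest value of the 4 libraries for 18 of the 21. Before the statistics of single genes, the promoters of 3 of them are shown. *Dmp1*, *Mepe*, and *Spp1* belong to one family of acidic bone matrix proteins, share a stretch of chromosome 5, and were picked from it because their windows hold the letters TGTGGT. These letters, the core that RUNX factors bind, were searched on both strands in the 250 bases before each start in RefSeq (GRCm38.p6) and stand in capitals below, also where they read ACCACA on the printed strand. They were found in 23.8% of the 21 promoters matched to 18 of the 22 listed genes and in 14.05% of all 32851 promoters. *Ibsp*, of the same family and cluster, had none in its window. A match is a description of the letters and not of binding.
Dmp1, chr5:104202408-104202503, plus strand: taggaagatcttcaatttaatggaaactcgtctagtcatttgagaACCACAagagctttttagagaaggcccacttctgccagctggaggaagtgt
Mepe, chr5:104325166-104325261, plus strand: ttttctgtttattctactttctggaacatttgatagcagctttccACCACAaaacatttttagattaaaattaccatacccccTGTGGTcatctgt
Spp1, chr5:104434938-104435033, plus strand: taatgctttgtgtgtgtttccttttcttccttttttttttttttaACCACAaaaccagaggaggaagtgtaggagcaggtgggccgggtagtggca
The match nearest to the 5′ end began 164 bases before the start of *Dmp1*, 118 before that of *Mepe*, and 128 before that of *Spp1*.

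In the mm9 annotation of GENCODE, these genes lie in 1 cluster of 238 kb on chromosome 5, from the start of *Dmp1* at 104631632 to the end of *Spp1* at 104870069, with *Ibsp* at 104728190-104740488 and *Mepe* at 104754348-104767630, all on the plus strand. Each of the 4 was more than 3-fold lower in PF. *Dmp1*, which encodes an osteocyte matrix protein that controls phosphate, was at 19.7 FPKM in PF, 281 in COR, 21.8 in SAG, and 54.96 in GP, a log2 ratio of -3.77. *Ibsp*, bone sialoprotein, was at 123 FPKM in PF, 1575 in COR, 104 in SAG, and 761 in GP, with a log2 ratio of -3.67. COR was the highest library for both, and PF and SAG lay close to each other at the low end. *Spp1*, osteopontin, was at 1649 FPKM in PF, 8324 in COR, 617 in SAG, and 6882 in GP and had the log2 ratio closest to 0 of the 4, -2.33. *Mepe* was nearly absent from PF, at 0.0353 FPKM in PF, 5.52 in COR, 0.146 in SAG, and 3.39 in GP. The gene before the cluster went the other way, as *Sparcl1*, a relative of *Sparc* on the minus strand at 104508130-104543107, was at 36.4 FPKM in PF, 8.45 in COR, 53.3 in SAG, and 68.2 in GP. It was the 1 member of the list past 3-fold in the opposite direction (log2 ratio 1.99). *Pkd2*, the gene behind *Spp1*, was at 15.5 FPKM in PF and 37.6 in COR, and *Dspp* was listed at 0 in all 4 libraries. *Pkd2* and *Dspp* were chosen after their values were seen, for their place beside the cluster.

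The other members past 3-fold were *Omd* (osteomodulin), *Phex*, *Ank*, *Enpp1*, *Smpd3*, and *Ifitm5*. *Ank* and *Enpp1*, which supply the mineralization inhibitor pyrophosphate to the matrix, were at 15.4 FPKM in PF and 81.4 in COR and at 18.7 FPKM in PF and 86.6 in COR. *Smpd3*, a sphingomyelinase needed for mineralization, was at 16.4 FPKM in PF and 71.04 in COR. Genes that inhibit and genes that promote mineral were thus both lower in PF. *Ifitm5*, an osteoblast membrane protein, differed least among those past the threshold, at 141 FPKM in PF and 439.8 in COR, and *Phex*, an osteocyte peptidase, was at 0.0527 FPKM in PF and 5.66 in COR. Members short of 3-fold included *Alpl*, tissue alkaline phosphatase, at 461 FPKM in PF and 645 in COR, and *Bglap*, osteocalcin, at 426 FPKM in PF and 790.1 in COR, a gene whose reads are hard to separate from those of its near-identical copy *Bglap2* (116 and 216 FPKM). At 10 FPKM or more in both libraries 14 members remained, with a median of -1.26 and 7 of them at least 3-fold lower.

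All 27 transcription factors of the osteoblast lineage listed were compared. In PF 6 were at least 3-fold lower, against 4.87% of all genes, and 2 were higher, against 6.78%, with a median of -0.37. *Sp7* (osterix), which commits cells to the osteoblast lineage, was at 33.8 FPKM in PF, 199.9 in COR, 7.93 in SAG, and 47.3 in GP, a log2 ratio of -2.53. *Runx2*, the factor that acts before it, was at 18.9 FPKM in PF and 30.4 in COR and did not pass 3-fold. *Tcf7*, a Wnt effector, was at 10.5 FPKM in PF and 61.8 in COR. *Dlx5* and *Dlx3*, homeobox activators of bone genes, were at 22.6 FPKM in PF and 102 in COR and at 4.67 FPKM in PF and 21.2 in COR, and *Runx3* was at 2.25 FPKM in PF and 10.9 in COR. On the PF side, *Foxc2*, a forkhead factor of early head mesenchyme, was at 44.7 FPKM in PF, 8.34 in COR, 15.3 in SAG, and 8.22 in GP. *Msx1*, *Twist2*, and *Foxc1* had higher values in PF without passing 3-fold (258 and 94.4, 27.1 and 8.77, and 62.4 and 24.4 FPKM in PF and COR), whereas *Twist1*, the gene of Saethre-Chotzen syndrome, had a lower one (42.1 and 124 FPKM).

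**Figure D3:**
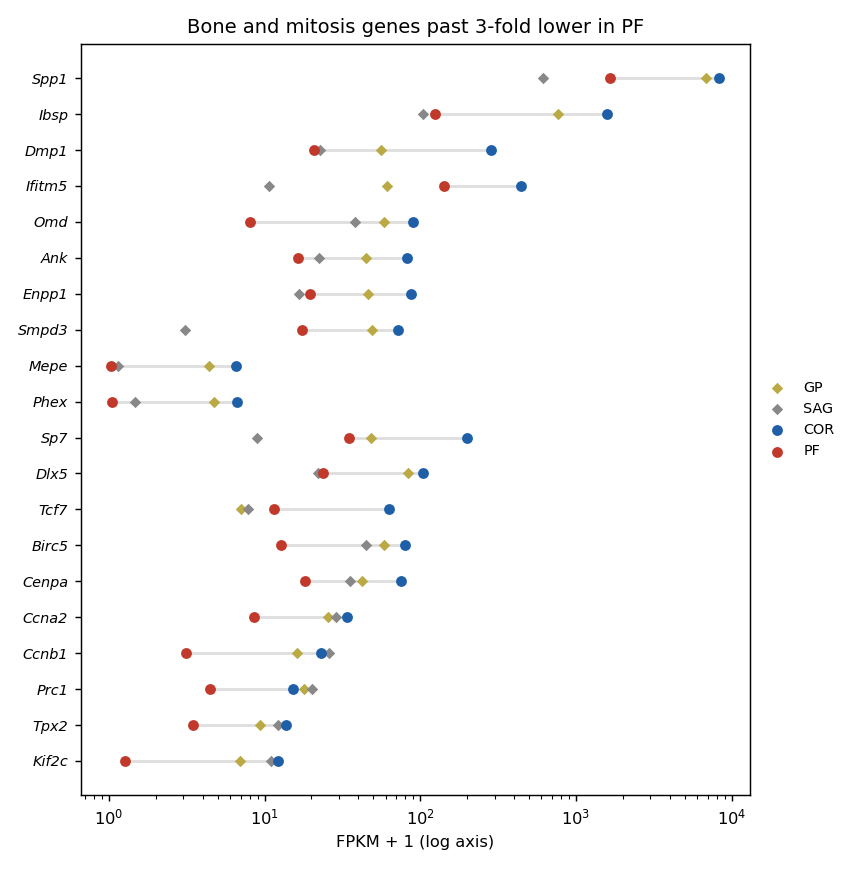
FPKM + 1 on a log axis for 20 bone and mitosis genes at least 3-fold lower in PF, with 1 point per library (PF red, COR blue, SAG grey, GP ochre) and a grey line from PF to COR. PF is to the left of COR in every row, and in the 7 mitosis rows at the bottom it is also left of SAG and GP.

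Genes of the growth plate were examined because the PF suture closes through cartilage. Of 22 cartilage genes compared, 4 were at least 3-fold higher in PF and 2 lower, against 6.78% and 4.87% of all genes. The median was -0.04, which became 0.21 when set relative to *Gapdh* and 0.07 after GC correction. The central cartilage genes were low in both sutures. *Col2a1*, the main cartilage collagen, was at 31.4 FPKM in PF, 35.4 in COR, 1749.8 in SAG, and 1731 in GP, and *Acan*, aggrecan, at 23.3 FPKM in PF, 15.6 in COR, 25.9 in SAG, and 59.0 in GP. *Epyc*, a small proteoglycan of cartilage, was the member farthest up in PF, at 69.3 FPKM in PF and 6.41 in COR (log2 ratio 3.25), followed by *Col9a2* at 45.8 FPKM in PF and 10.3 in COR, *Chad* (chondroadherin) at 223 FPKM in PF and 54.9 in COR, and *Ucma* at 9.03 FPKM in PF and 1.82 in COR. *Col9a2* and *Ucma* were far higher in SAG (541 and 106 FPKM), and *Chad* nearly matched its PF level there (219.6 FPKM). The levels of *Col9a2*, *Ucma*, and *Chad* therefore did not separate the fusing suture from both patent ones. *Epyc* went the other way, with less in SAG (37.0 FPKM) than in PF. Of the 8 markers listed for hypertrophic chondrocytes, 6 were at least 3-fold lower in PF, and the list shares *Ibsp*, *Spp1*, and *Alpl* with the osteoblast. *Mmp13*, the collagenase of late cartilage and bone, was at 28.9 FPKM in PF, 298 in COR, 346 in SAG, and 605 in GP, *Panx3*, a channel protein, at 17.1 FPKM in PF, 149.7 in COR, 4.46 in SAG, and 104 in GP, and *Ihh* at 0.136 FPKM in PF, 6.48 in COR, 0.381 in SAG, and 44.01 in GP. *Col10a1*, which defines hypertrophic cartilage, was at 1.44 FPKM in PF, 1.08 in COR, 0.813 in SAG, and 600.5 in GP, so that it was near 1 FPKM in both sutures.

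Every gene of the mitosis and G2/M list had a lower value in PF. All 37 were compared, 19 were at least 3-fold lower, none was 3-fold higher, and the median log2 ratio was -1.60. PF held the highest value of the 4 libraries for none of them, while COR did for 17, SAG for 13, and GP for 7. Promoters of mitotic genes often hold CCAAT boxes and the cell cycle element TTTGAA close to the start, and 3 that do are printed, with both motifs in capitals on either strand, from RefSeq (GRCm38.p6). In the 250 bases before the start, TTTGAA was found in 33.3% of the 33 promoters matched to 31 listed genes and in 16.0% of all promoters, and CCAAT in 78.8% and 33.8%. The motifs did not overlap in the stretches shown.
Cdc20, chr4:118437344-118437406, minus strand: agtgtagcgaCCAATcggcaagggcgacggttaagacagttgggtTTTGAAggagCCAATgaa
Prc1, chr7:80294401-80294475, plus strand: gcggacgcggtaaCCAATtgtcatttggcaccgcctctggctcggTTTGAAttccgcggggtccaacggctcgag
Mki67, chr7:135716445-135716540, minus strand: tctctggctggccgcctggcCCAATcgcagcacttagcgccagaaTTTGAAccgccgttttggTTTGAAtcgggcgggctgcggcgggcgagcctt
The first TTTGAA began 18 bases before the start of *Cdc20*, 30 before that of *Prc1*, and 116 before that of *Mki67*.

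Of these 3, *Cdc20*, an activator of the anaphase-promoting complex, was at 16.6 FPKM in PF, 52.5 in COR, 36.7 in SAG, and 35.2 in GP, *Prc1*, which bundles microtubules of the spindle midzone, at 3.43 FPKM in PF, 14.1 in COR, 19.3 in SAG, and 16.9 in GP, and *Mki67*, the gene of the Ki-67 antigen, at 0.384 FPKM in PF, 3.91 in COR, 3.395 in SAG, and 3.29 in GP. The PF value was the lowest of the 4 for each. *Kif2c*, a kinesin of the centromere, had the largest difference of the list, at 0.262 FPKM in PF, 11.2 in COR, 9.94 in SAG, and 5.98 in GP (log2 ratio -3.27). *Ccnb1*, the cyclin that starts mitosis, was at 2.14 FPKM in PF, 21.97 in COR, 24.9 in SAG, and 15.2 in GP, and *Birc5* (survivin), a subunit of the chromosomal passenger complex, at 11.8 FPKM in PF, 78.8 in COR, 43.97 in SAG, and 57.3 in GP. *Cenpa*, the histone of the centromere, was at 17.1 FPKM in PF and 73.8 in COR. *Ccnb2* and *Top2a* fell short of 3-fold, at 25.9 FPKM in PF and 50.1 in COR and at 4.07 FPKM in PF and 5.601 in COR. Most members were at low levels in both libraries, and of the 6 at 10 FPKM or more in both, 3 were at least 3-fold lower, with a median of -1.26. DNA replication genes did not show the same size of difference. Of 38 compared, 2 were at least 3-fold lower, against 4.87% of all genes, none higher, and the median was -0.19, or 0.06 relative to *Gapdh*. *Chaf1a*, a histone chaperone of replication, was the farthest, at 0.155 FPKM in PF and 5.58 in COR. *Cdc45*, a helicase subunit mutated in some craniosynostosis, was at 2.504 FPKM in PF and 5.65 in COR.

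Inhibitors of the cell cycle did not share a direction, and most of those named here were lower in PF. *Cdkn1c*, the imprinted inhibitor p57, was among the 8 genes of highest level in PF, at 3198 FPKM in PF, 945 in COR, 961 in SAG, and 1742 in GP, and had a log2 ratio of 1.76, which became 1.36 after quantile normalization and 1.38 after correction for GC content. *Cdkn1a* (p21) was lower, at 37.7 FPKM in PF and 150.1 in COR, as were *Cdkn2b* (p15) at 3.50 FPKM in PF and 13.4 in COR, *Btg1* at 8.76 FPKM in PF and 31.5 in COR, and *Gadd45a* at 0.957 FPKM in PF and 11.6 in COR. *Gadd45a* is 1 of the 10 genes under 1 FPKM in PF alone. The list held CDK inhibitors together with G1 cyclins and related regulators, so that some members promote the cycle. In all, 16 of its 23 genes compared had a lower value in PF, with a median of -0.31. Of the 23, 1 was at least 3-fold higher in PF and 4 were lower, against 6.78% and 4.87% of all genes.

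Genes of the Wnt pathway differed by component in RNA level, which is not a measure of signalling. For the same age, the paper reports no significant enrichment of the canonical Wnt gene set between the PF, SAG, and COR sutures. Among ligands, 10 of 19 were compared and 3 were at least 3-fold lower in PF, with none higher. PF lists *Wnt10b* at 0, and COR had 6.698 FPKM of it, while *Wnt7b* was at 0.0187 FPKM in PF and 6.29 in COR, and *Wnt10a* at 0.0354 FPKM in PF and 5.32 in COR. All of these were above 5 FPKM in COR and at 0.0354 FPKM or less in PF. *Wnt5b*, at 14.9 FPKM in PF and 41.5 in COR, *Wnt9a*, at 21.3 FPKM in PF and 15.4 in COR, and *Wnt11*, at 17.1 FPKM in PF and 6.84 in COR, were the ligands with the highest PF values and did not pass 3-fold. Over the 10 ligands the median of -1.01 changed sign to 0.14 when only those at 1 FPKM or more in both libraries were kept. Of 22 receptors, co-receptors, and R-spondins compared, 5 were at least 3-fold higher in PF and none lower. *Lgr5*, a receptor for R-spondins and a stem cell marker in epithelia, was at 10.8 FPKM in PF, 0.885 in COR, 0.987 in SAG, and 9.202 in GP (log2 ratio 2.65). The receptors *Fzd9* and *Fzd4* were at 48.2 FPKM in PF and 10.5 in COR and at 7.01 FPKM in PF and 1.61 in COR. *Rspo3* and *Rspo2*, R-spondins, which are secreted ligands of LGR receptors, were at 23.5 FPKM in PF and 6.22 in COR and at 6.84 FPKM in PF and 1.61 in COR.

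Wnt inhibitors were split. *Sfrp2*, a secreted frizzled-related protein, was 1 of the 12 genes farthest up in PF, at 1041 FPKM in PF, 99.8 in COR, 66.2 in SAG, and 133 in GP, a log2 ratio of 3.37, and PF was the highest library by a wide margin. *Sfrp1* was at 23.7 FPKM in PF and 5.23 in COR. *Dkk1* and *Wif1* were higher in COR, at 3.52 FPKM in PF and 27.04 in COR and at 64.6 FPKM in PF and 203 in COR, the latter passing 3-fold as listed but not relative to *Gapdh* (-1.39). Of 18 Wnt targets and intracellular components, 15 had a lower value in PF, with a median of -0.74. Against 4.87% of all genes, 2 were at least 3-fold lower, *Tcf7* and *Cd44* (14.97 and 75.1 FPKM), and none was higher. *Axin2*, a direct target, was below 1 FPKM in both libraries (0.125 and 0.695). *Lef1* was at 0.1804 FPKM in PF and 1.88 in COR and *Ccnd1* at 17.3 FPKM in PF and 41.4 in COR, both short of 3-fold.

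**Figure D4:**
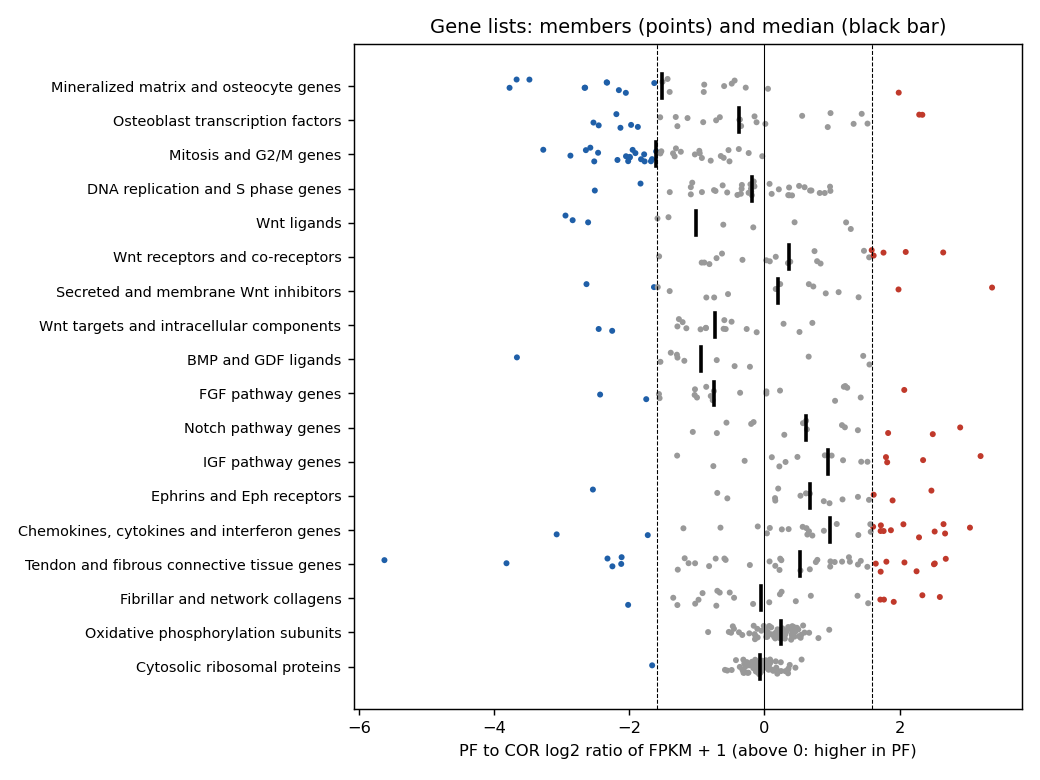
PF to COR log2 ratio of FPKM + 1 (horizontal axis) for the members of 18 gene lists compared, with a point per gene (red at least 3-fold higher in PF, blue at least 3-fold lower, grey between), a black bar at each list's median, and dashed lines at 3-fold. Mineralized matrix and mitosis genes have medians of -1.51 and -1.60, the chemokine list 0.97 and the IGF list 0.94, and oxidative phosphorylation and ribosomal genes stay near 0.

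Of the growth factor ligands of the BMP and GDF family, 1 of 12 was at least 3-fold lower in PF, against 4.87% of all genes. That was *Bmp8a*, at 0.0271 FPKM in PF, 12.01 in COR, 0.517 in SAG, and 7.45 in GP. *Bmp2* and *Bmp3* were at 7.79 FPKM in PF and 21.99 in COR and at 5.14 FPKM in PF and 16.9 in COR, while *Bmp4* and *Gdf10* had higher values in PF (44.97 and 15.7 and 173 and 58.3 FPKM in PF and COR). The list's median of -0.95 became 0.51 for the 4 ligands at 10 FPKM or more in both libraries. None of the 23 BMP receptors, antagonists, and targets passed 3-fold. In the TGF-beta pathway 1 of 21 was at least 3-fold lower, close to the 4.87% of all genes, and none was higher. The lower one was *Tgfb1*, at 2.63 FPKM in PF, 30.2 in COR, 6.002 in SAG, and 8.92 in GP, with COR the highest of the 4.

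FGF signalling is read through feedback genes of the ERK pathway. *Dusp6*, the ERK phosphatase, was at 2.26 FPKM in PF, 16.6 in COR, 24.8 in SAG, and 24.4 in GP (log2 ratio -2.43), and *Etv5*, a transcription factor induced by FGF, at 1.895 FPKM in PF, 8.73 in COR, 11.8 in SAG, and 9.49 in GP. Both were lowest in PF among the 4 libraries. *Spry4* and *Spry2*, feedback inhibitors of the same pathway, had higher values in PF (5.24 and 1.32 and 2.43 and 0.467 FPKM in PF and COR) without passing 3-fold. *Fgf18*, a ligand of skull growth, was at least 3-fold higher in PF, at 24.4 FPKM in PF and 5.06 in COR. The receptors *Fgfr1* and *Fgfr2* were at 34.2 FPKM in PF and 44.2 in COR and at 46.8 FPKM in PF and 94.6 in COR, and *Fgfr3* at 13.5 FPKM in PF and 41.4 in COR, all short of 3-fold. In the hedgehog list, 9 of 14 had a higher value in PF, with a median of 0.63. None was at least 3-fold higher and 2 were at least 3-fold lower, against 6.78% and 4.87% of all genes. The lower ones were *Ihh* and *Pth1r*, the receptor of its partner PTHrP (106 and 380.2 FPKM). *Gli1*, a target of the pathway and a marker of suture stem cells, was at 7.86 FPKM in PF and 3.99 in COR.

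Notch genes were higher in PF where they passed. Of 15 compared, 3 were at least 3-fold higher, against 6.78% of all genes, and none lower, with a median of 0.62. *Heyl* and *Nrarp*, both targets of active Notch, were at 21.5 FPKM in PF, 2.02 in COR, 1.92 in SAG, and 7.54 in GP and at 13.8 FPKM in PF, 1.63 in COR, 2.08 in SAG, and 8.09 in GP, and PF was the highest library for both. COR lists the ligand *Dll4* at 0, and PF had 2.56 FPKM of it. *Jag1*, the ligand mutated in Alagille syndrome, was at 2.25 FPKM in PF and 4.29 in COR. Among ephrins and their receptors, 14 of 17 had a higher value in PF, 3 were at least 3-fold higher, and 1 lower, against 6.78% and 4.87% of all genes. The higher ones were *Epha7* at 16.7 FPKM in PF and 2.199 in COR, *Ephb6* at 17.1 FPKM in PF and 3.86 in COR, and *Efna4*, a craniosynostosis gene, at 24.2 FPKM in PF and 7.23 in COR, and the lower one *Epha2* at 0.201 FPKM in PF and 5.98 in COR. After correction for GC content, *Ephb6* (1.53) and *Efna4* (1.35) were short of 3-fold.

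The insulin-like growth factor (IGF) system held several abundant genes of PF. Of 16 compared, 13 had a higher value in PF, 4 were at least 3-fold higher (against 6.78% of all genes), and none lower, with a median of 0.94. *Igfbp2*, a binding protein that holds IGF in the matrix, was at 1828 FPKM in PF, 198 in COR, 542 in SAG, and 70.2 in GP, a log2 ratio of 3.20. *Igfbp4* was at 2464 FPKM in PF, 708 in COR, 728 in SAG, and 796 in GP and *Igfbp3* at 476 FPKM in PF, 134 in COR, 20.8 in SAG, and 724 in GP. PF was highest for *Igfbp2* and *Igfbp4*, whereas *Igfbp3* was higher in GP. *Igfals*, which carries IGF complexes in serum, was at 8.004 FPKM in PF and 0.769 in COR. The ligand *Igf1* was at 92.95 FPKM in PF and 40.95 in COR and did not pass 3-fold. *Igfbp4* was just past the threshold, and its log2 ratio of 1.80 was 1.52 after quantile normalization and 1.46 after GC correction.

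Chemokines, cytokines, and interferon genes were higher in PF in 25 of 30 compared, with 11 at least 3-fold higher (against 6.78% of all genes), 2 lower, and a median of 0.97. *Cxcl12*, which holds blood stem cells near stromal cells, was at 773 FPKM in PF, 93.03 in COR, 209.9 in SAG, and 108 in GP (log2 ratio 3.04). The monocyte attractants *Ccl2* and *Ccl7* were at 17.1 FPKM in PF, 2.16 in COR, 1.17 in SAG, and 11.1 in GP and at 39.9 FPKM in PF, 5.42 in COR, 9.68 in SAG, and 8.08 in GP. PF was the highest library for all 3. *Ifitm1*, an interferon-induced membrane protein, was at 42.3 FPKM in PF and 5.89 in COR, and *Cxcl16* at 21.01 FPKM in PF and 3.51 in COR. *Tnfsf11* (RANKL), the signal for osteoclast formation, went the other way, at 0.134 FPKM in PF, 8.56 in COR, 1.14 in SAG, and 21.8 in GP. *Cxcl1* was the other lower member, at 0.485 FPKM in PF and 3.91 in COR, with its highest level of 49.8 FPKM in SAG. Leukocyte markers moved with this list. Of 16, 4 reached 1 FPKM in PF and 2 in COR, with sums of 46.5 and 9.04 FPKM, 6 and 5 were at 0, and *Lyz2* was at 30.2 FPKM in PF and 4.15 in COR, while *Ptprc* was at 0.568 FPKM in PF and 0.00523 in COR. Their part in the result was not tested.

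Fibrous connective tissue genes were far apart in both directions. Of 41 compared, 8 were at least 3-fold higher in PF and 6 lower, against 6.78% and 4.87% of all genes. *Dpt* (dermatopontin), a collagen-binding protein, had the lowest log2 ratio in PF of all genes at 5 FPKM or more outside the short RNA genes, -5.62, at 1.05 FPKM in PF, 100.1 in COR, 2.11 in SAG, and 4.01 in GP. *Postn*, periostin of the periosteum and bone fronts, was at 166 FPKM in PF, 2358 in COR, 191 in SAG, and 1284 in GP. It was among the 8 most abundant genes in COR. *Aspn* (asporin) and *Tnc* (tenascin C) were at 222 FPKM in PF and 1115 in COR and at 46.4 FPKM in PF and 204 in COR, and *Tnn* (tenascin N), named by the rule on distance, was at 15.7 FPKM in PF, 431 in COR, 10.7 in SAG, and 62.7 in GP. Genes of elastic microfibrils and of tendon were on the other side. *Mfap5* was at 98.6 FPKM in PF and 14.5 in COR, *Mfap4* at 2641 FPKM in PF and 842 in COR, *Fbn2* at 11.5 FPKM in PF and 1.63 in COR, and *Prelp* at 101 FPKM in PF and 16.8 in COR. *Tnmd* (tenomodulin), the tendon marker, was at 401 FPKM in PF, 69.6 in COR, 142 in SAG, and 1379 in GP, with GP highest.

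Collagens other than those left out were near level in the median (-0.05, and 0.20 relative to *Gapdh*). Of 24 compared, 5 were at least 3-fold higher in PF and 1 lower, against 6.78% and 4.87% of all genes. *Col8a1*, a network collagen, was at 243 FPKM in PF, 39.4 in COR, and 252 in SAG, and *Col23a1* at 10.5 FPKM in PF, 2.04 in COR, and 28.9 in SAG. Both were thus higher in SAG than in PF. *Col26a1* was at 85.7 FPKM in PF, 16.2 in COR, and 25.6 in SAG, and *Col14a1* at 84.9 FPKM in PF and 24.2 in COR. *Col4a1*, a basement membrane collagen, was at 80.7 FPKM in PF and 23.9 in COR. The lower one was *Col13a1*, a transmembrane collagen, at 9.897 FPKM in PF and 43.1 in COR. Of 35 matrix proteases and inhibitors, 2 were at least 3-fold lower in PF, against 4.87% of all genes, and none higher. The lower ones were *Mmp13* and *Mmp3* (stromelysin, 0.569 and 12.4 FPKM).

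The 12 genes farthest up in PF were led by *Vtn* (vitronectin), a ligand of the CD51 integrins, at 67.6 FPKM in PF, 1.14 in COR, 26.4 in SAG, and 2.46 in GP, a log2 ratio of 5.002. *Aldh1a2*, an enzyme that makes retinoic acid, was at 62.1 FPKM in PF, 1.302 in COR, 7.09 in SAG, and 1.66 in GP (4.78), and *Cntfr*, the receptor subunit for ciliary neurotrophic factor, at 82.6 FPKM in PF, 2.22 in COR, 10.01 in SAG, and 0.588 in GP (4.70). These were near absent from COR and, except for *Vtn*, low in SAG as well. *Gja4* (connexin 37) was at 47.6 FPKM in PF, 2.25 in COR, 1.35 in SAG, and 15.01 in GP, *Agt* (angiotensinogen) at 34.7 FPKM in PF, 1.404 in COR, 9.499 in SAG, and 42.3 in GP, and *Dlk1*, a preadipocyte factor, at 96.4 FPKM in PF, 6.57 in COR, 88.9 in SAG, and 145 in GP. The last 2 were higher in GP than in PF. *Apoe*, the lipid carrier, was at 1883 FPKM in PF, 159 in COR, 971 in SAG, and 120.0 in GP, the largest log2 ratio (3.56) among genes at 10 FPKM or more in both libraries. The rest of the 12 were *Sult1a1*, *Tspan8*, *Ntn5*, *Cyp1b1*, and *Sfrp2*. On the COR side the farthest after *Dpt* were *Duoxa1*, a maturation factor of dual oxidases, at 0.243 FPKM in PF, 39.2 in COR, 0.405 in SAG, and 2.73 in GP, and *Kcnn4*, a calcium-activated potassium channel, at 0.606 FPKM in PF, 45.9 in COR, 1.61 in SAG, and 9.36 in GP. *Actr8* and *Sh3kbp1* were also among the 12 farthest on this side, and both belong to the 10 genes under 1 FPKM in PF alone.

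**Figure D5:**
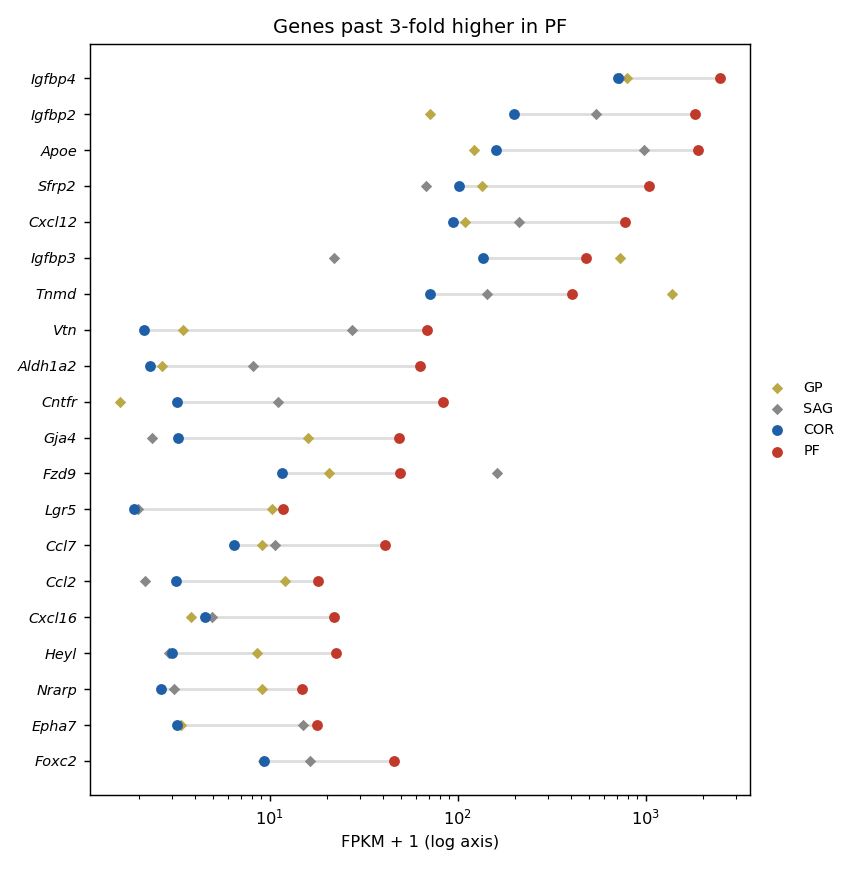
FPKM + 1 on a log axis for 20 genes at least 3-fold higher in PF, with 1 point per library (PF red, COR blue, SAG grey, GP ochre) and a grey line from COR to PF. PF is to the right of COR in every row, and for rows such as *Tnmd* and *Fzd9* another library is higher still.

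Several lists of markers of other cell types had mostly higher values in PF than in COR. Of 13 pericyte and smooth muscle markers, all were compared, 12 had a higher value in PF and 6 were at least 3-fold higher, with sums of 929 FPKM in PF, 382 in COR, 95.99 in SAG, and 698 in GP, and none was at 0 in either suture. *Rgs5* was at 7.498 FPKM in PF and 0.432 in COR, *Des* (desmin) at 9.81 FPKM in PF and 1.41 in COR, and *Myh11*, smooth muscle myosin, at 17.3 FPKM in PF and 3.46 in COR. Of 20 meningeal markers, 16 were compared, 12 had a higher value in PF, and 4 were at least 3-fold higher. These were *Aldh1a2*, *Aldh1a1* (9.18 and 0.7901 FPKM), *Cldn11* (10.6 and 1.09 FPKM), and *Foxd1* (135 and 37.1 FPKM). The sums were 4625 FPKM in PF, 4265 in COR, 4246 in SAG, and 4889 in GP, with GP highest. In PF and in COR 2 were at 0. *Gja4*, *Cxcl12*, and *Heyl* are used by vessel walls and *Aldh1a2* by the meninges, and the part of such cells in their levels was not tested.

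Nerve, endothelial, and erythroid markers also had mostly higher values in PF than in COR. In both libraries their sums were smaller than those of the pericyte and meningeal lists. *Mbp*, a myelin gene, was at 88.1 FPKM in PF and 13.0 in COR. The 12 Schwann cell and glial markers summed to 190.0 FPKM in PF, 58.4 in COR, 152 in SAG, and 231 in GP, with GP highest. In PF and COR 2 and 1 of them were at 0, and 7 of 9 compared had a higher value in PF, with 2 past 3-fold. Endothelial markers summed to 52.2 and 13.2 FPKM, with none of 12 at 0, 5 of 6 compared with a higher value in PF, 1 past 3-fold, *Esam* at 29.5 FPKM in PF and 2.597 in COR, and *Pecam1* at 0.295 FPKM in PF and 0.0421 in COR. Of the 8 erythroid markers listed, 2 reached 1 FPKM in PF, *Hba-a1* (9.401 and 1.26 FPKM in PF and COR) and *Hbb-b1* (6.06 and 0.436 FPKM), with sums of 15.6 and 1.83 FPKM. Of the 12 choroid plexus markers, 9 were compared, 8 had a higher value in PF, and 3 were at least 3-fold higher, with sums of 1822 FPKM in PF, 496 in COR, 5885 in SAG, and 1669 in GP and none at 0 in either suture. A single member, *1500015O10Rik* (*Ecrg4*), made up most of the sums in PF, COR, and GP. It was at 1241 FPKM in PF, 302 in COR, 356 in SAG, and 1444 in GP, with GP highest. *Ttr*, the main gene of the choroid plexus, was at 465 FPKM in PF, 141 in COR, 5103 in SAG, and 9.74 in GP. Of 12 neuron markers 3 were compared, 2 at least 3-fold higher in PF and 1 lower, with sums of 85.3 and 22.2 FPKM and 3 and 4 at 0. The remaining lists of this kind rest on few genes at 1 FPKM or more. Melanocyte markers summed to 13.3 and 3.82 FPKM, with 3 of 7 compared, all with a higher value in PF and 2 past 3-fold. Adipocyte markers summed to 21.8 and 7.65 FPKM, with 2 of 10 compared, both with a higher value in PF and 1 past 3-fold, and 5 and 4 at 0. Osteoclast markers summed to 631 and 537 FPKM, with 4 of 8 compared, 3 of them with a higher value in PF and 1 past 3-fold, and 2 and 2 at 0. *Ctsk*, which is also on the skeletal stem cell list, made up most of both sums, at 549.9 FPKM in PF and 475.7 in COR. Markers of pineal or photoreceptor-like cells, with sums of 16.7 and 6.25 FPKM, had none past 3-fold, and keratinocyte markers, with sums of 25.04 and 15.99 FPKM, had 1 lower in PF. Skeletal muscle markers were near absent from both sutures, with sums of 3.52 and 2.86 FPKM and 4 and 7 of 12 at 0. Chondrocyte markers summed to 236 FPKM in PF and 216 in COR, against 7075 in SAG and 3954 in GP.

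The 2 sutures lie at different borders of the skull bones. Of 28 patterning factors of the head compared, 3 were at least 3-fold higher in PF, against 6.78% of all genes, and 5 lower, against 4.87%. With FPKM of 1 or more in both libraries the counts were 1 and 2, and relative to *Gapdh* 8 were higher. *Tfap2b*, a neural crest factor, was at 8.69 FPKM in PF, 0.441 in COR, 0.676 in SAG, and 0.243 in GP, and *Tbx18* at 5.22 FPKM in PF, 0.343 in COR, 2.04 in SAG, and 2.58 in GP. *En1*, a homeobox factor, was at 0.966 FPKM in PF, 6.76 in COR, 1.96 in SAG, and 0.175 in GP, and *Irx3* and *Irx5* at 7.69 FPKM in PF and 41.7 in COR and at 11.96 FPKM in PF and 40.7 in COR. For *En1*, *Irx3*, and *Irx5* COR was the highest of the 4 libraries. Clustered HOX genes, which are silent in the skull, were almost all under 1 FPKM in both sutures, with 1 of 33 compared, *Hoxd8* (1.32 and 0.0746 FPKM in PF and COR).

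The list of human craniosynostosis genes did not hold *Efna4*, given above among the ephrins. Of its 38 members compared, 1 was at least 3-fold higher in PF and 3 lower, against 6.78% and 4.87% of all genes. *Il11ra1*, the interleukin 11 receptor, was at 548 FPKM in PF, 128 in COR, 78.7 in SAG, and 143 in GP, and the lower ones were *Phex*, *Dusp6*, and *Rab23* (4.36 and 15.4 FPKM), the last short of 3-fold relative to *Gapdh* (-1.37) or after GC correction (-1.41). *Ezh2*, a histone methyltransferase, was at 2.59 FPKM in PF, 8.73 in COR, 17.9 in SAG, and 14.3 in GP. Its log2 ratio of -1.44 was short of 3-fold on the FPKM + 1 scale, but it passed with a pseudocount of 0.1 (-1.71). *Ptpn11*, the phosphatase of the RAS pathway, was at 14.96 FPKM in PF and 12.3 in COR, *Huwe1* at 2.23 FPKM in PF and 3.42 in COR, *Efnb1* at 62.1 FPKM in PF and 42.6 in COR, and *Ahdc1* at 0.593 FPKM in PF and 0.706 in COR, so none of these differed by 3-fold.

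Genes of general metabolism seldom passed 3-fold. None of the 74 oxidative phosphorylation subunits passed 3-fold, although 58 had a higher value in PF (median 0.24). Ribosomal protein genes had a median of -0.06, with 1 of 78 at least 3-fold lower, *Rpl26* (6.33 and 22.2 FPKM). None of 26 chaperones of the endoplasmic reticulum passed, and 21 had a lower value in PF (median -0.32). Of 19 heat shock chaperones, 3 were at least 3-fold lower in PF, against 4.87% of all genes, and none higher, with a median of -0.11, or 0.14 relative to *Gapdh*. The inducible heat shock genes *Hspa1a* and *Hspa1b*, which are near-identical copies whose reads cannot be separated with certainty, were at 6.44 FPKM in PF, 38.2 in COR, 101 in SAG, and 51.5 in GP and at 7.82 FPKM in PF, 40.5 in COR, 109 in SAG, and 64.96 in GP. Immediate early genes, which respond to cell handling, were lower in PF in 21 of 26, with 3 at least 3-fold lower, none higher, a median of -0.63, and SAG the highest library for 21. *Egr2* was at 0.402 FPKM in PF, 5.09 in COR, 39.2 in SAG, and 11.7 in GP. *Slc16a3*, a lactate exporter, was the hypoxia and glycolysis gene farthest down in PF, at 4.29 FPKM in PF and 30.9 in COR, and *Adm* (adrenomedullin) the farthest up, at 28.4 FPKM in PF and 6.98 in COR.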

How the data were processed

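Per the labels and the study's methods, total RNA of sorted cells was amplified as cDNA with a low-input kit and sequenced as paired ends. The authors mapped reads to mouse mm9 with STAR 2.5.1b and deposited FPKM per gene symbol from Cuffdiff (Cufflinks 2.2.1). How Cuffdiff scaled the libraries and how many fragments each held is not given in the sources used here, so the precision of single values is unknown, and FPKM carries no counts. The 2 libraries were grouped by their labels. The log2 ratio of FPKM + 1 was computed for genes at 1 FPKM or more in either, and 3-fold was counted, with no test. The counting was run on simulated data, PF values with set changes and no noise, which checks the arithmetic and not the comparison of real libraries. Genes were taken from 33 gene lists and 18 marker lists, up to 4 per list past 3-fold at 5 FPKM or more in the higher library (otherwise the 3 most abundant), with the 12 farthest each way, the 10 farthest each way at 10 FPKM or more in both, the 8 highest per library, sort genes, housekeeping genes, craniosynostosis genes, and Wnt ligands. Members short of 3-fold were added where a list's best known genes were among them. The comparison, the lists, and this rule were chosen with earlier results of these data known. GC content, transcript length, and mm9 positions came from GENCODE vM1, promoters from RefSeq. Results were recomputed with other expression filters, a pseudocount of 0.1, median-ratio scaling, quantile normalization, values relative to *Gapdh*, other exclusions, and a 2-fold threshold. A loess correction for GC content (span 0.3), a filter at 10 FPKM in both, and 3 exclusions of low-level genes were added after the data were seen. Computations ran in Python 3.11.15 (pandas 2.3.3, numpy 2.4.6, statsmodels 0.14.6), and figures were drawn with matplotlib 3.10.9. Some genes that the rule takes are not reported here.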

Additional observations from a re-analysis of the deposited data

How the results depend on the processing

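The counts of 871 higher and 626 lower genes depended on the filter, the pseudocount, and the threshold. A floor of 5 FPKM in either library left 506 higher. A floor of 1 FPKM in both left 360 higher and 250 lower. A pseudocount of 0.1 gave 1705 higher and 1224 lower, the 2-fold threshold 2133 and 1640, and FPKM of 10 or more in both libraries 95 and 55. The other 21 values of these counts stayed within 1.5 times. Of 51 list medians, 13 changed sign, 3 of them of 0.5 or more in size. The Wnt ligand median became 0.14 with FPKM of 1 or more in both, the BMP and GDF ligand median 0.51 with FPKM of 10 or more in both, and the osteoclast marker median -0.0603 with no filter, and the cause was not tested. Of the smaller ones, the integrin median of 0.37 became -0.55 with a floor of 5 FPKM and -0.16 with 1 FPKM in both, the keratinocyte marker median of -0.32 became 1.04 with either, the Wnt inhibitor median of 0.20 became -0.14 after GC correction and -0.54 with 10 FPKM in both, and the collagen, cartilage, replication, heat shock, glycolysis, and ribosomal medians changed sign relative to *Gapdh*, the chondrocyte marker median with a floor of 5 FPKM. No named gene past 3-fold changed direction, in 2495 comparisons over all alternatives, while 26 of these fell short of 3-fold and 19 passed it. Those that fell short include *Etv5* (-1.50) and *Pth1r* (-1.58) relative to *Gapdh*, *Fzd4* (1.56) and *Ttr* (1.58) after quantile normalization, and *Foxd1* (1.29) and *Col9a2* (1.57) after GC correction. One that passed was *Ezh2* (-1.71) with a pseudocount of 0.1. No paired analysis was possible because there was a single library of each suture.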

Other observations

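Some gene families that the lists did not hold differed between the sutures, and all of them were chosen after their values were seen, so their counts are a description. Glutathione transferases, which conjugate reactive compounds, had a higher value in PF for 9 of 10 compared, with 4 at least 3-fold higher. *Gsta4* was at 127 FPKM in PF, 14.9 in COR, 84.96 in SAG, and 21.7 in GP, and *Gstt1* at 113 FPKM in PF, 20.2 in COR, 21.2 in SAG, and 19.2 in GP. All 8 genes of class II antigen presentation had a higher value in PF, with 4 at least 3-fold higher, among them *H2-Aa* at 12.9 FPKM in PF, 1.11 in COR, 1.79 in SAG, and 0.0294 in GP and *H2-DMb1* at 20.96 FPKM in PF, 3.81 in COR, 3.45 in SAG, and 5.27 in GP. All 4 leukocyte markers compared also had a higher value in PF, with sums over the 16 listed of 46.5 and 9.04 FPKM, and *Cd74*, of class II antigen presentation, is on both lists. The part of leukocytes in these values was not tested. The inducible proteasome subunits *Psmb9* and *Psmb10* were at 8.55 FPKM in PF and 0.455 in COR and at 79.2 FPKM in PF and 17.7 in COR, whereas none of the 7 constitutive beta subunits passed 3-fold (median 0.00). The annexins, membrane-binding proteins of which some occur in matrix vesicles, were mostly on the other side, with 7 of 10 lower in PF. *Anxa8* was at 6.89 FPKM in PF, 66.1 in COR, 8.88 in SAG, and 91.2 in GP and *Anxa1* at 127 FPKM in PF, 466 in COR, 138 in SAG, and 362 in GP, while *Anxa3* was at 40.7 FPKM in PF and 14.8 in COR. The secreted carboxypeptidase-like genes *Cpz*, *Cpxm1*, and *Cpxm2* were all at least 3-fold higher in PF, with *Cpz*, which has a frizzled-like domain, at 734 FPKM in PF, 142 in COR, 68.5 in SAG, and 125 in GP. The ion transport regulators of the FXYD family had a higher value in PF for all 6 compared, led by *Fxyd7* at 29.9 FPKM in PF, 3.76 in COR, 5.29 in SAG, and 2.36 in GP.

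The ratio moved with the composition of the transcript. The median log2 ratio was -0.22 in the fifth of genes lowest in GC content and 0.30 in the fifth highest, and 0.24 in the fifth with the shortest transcripts and -0.10 in the fifth with the longest. After the GC correction the mineralized matrix list had a median of -1.89 and the mitosis list -1.32. Of 93 genes of short RNAs compared, 33 were at least 3-fold higher in PF and 34 lower, and 15 of the 19 genes at 20 FPKM or more in one library and listed at 0 in the other were of this kind, the remaining 4 being *Sparc* and the 3 collagens left out. FPKM of genes shorter than a sequenced fragment has little support, and no short RNA is named here.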
